A study of Mus musculus with 8 samples.

Results

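*Hspa5*, *Hsp90b1*, *Dnajb9*, *Dnajc3*, *Pdia4*, *Pdia6*, *Sdf2l1*, *Creld2*, *Manf* and *Hyou1* encode chaperones, folding enzymes and helper proteins of the endoplasmic reticulum (ER). They were taken by gene symbol, and all 10 were found among the 16540 genes of the count table. All 10 were also among the 12307 genes with enough counts to be tested. Their expression was measured by RNA sequencing of liver from male *Apoe*-/- mice, which lack apolipoprotein E, carry a high plasma cholesterol and are prone to atherosclerosis. Isoginkgetin (ISOGK), a biflavonoid of Ginkgo biloba studied as an inhibitor of ATP citrate lyase, was given daily by intraperitoneal injection (20 mg/kg) over 8 weeks, and control mice received vehicle (columns named for DMSO). Both groups ate the same kind of diet, named Western in the labels and high in cholesterol in the methods, and the age of the mice is not given in the sources used here. Each group held 4 mice with 1 library per mouse, as far as the sample labels tell separate mice apart. The question addressed was whether liver mRNA of these genes differed between ISOGK-treated and vehicle-treated mice.

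Between 19605286 and 24461854 reads were counted on genes in each vehicle library, and between 17457106 and 21626399 in each ISOGK library. The least abundant reading of the 10 genes was 157 counts (*Sdf2l1*) and the most abundant 28600 counts (*Hspa5*). All levels are given as CPM, that is, counts divided by library size after correction with edgeR's TMM factors. *Apoe* itself had 3252 to 6489 counts per library. No wild-type library was there to compare with, so the knockout could not be judged from gene counts and is known from the labels alone.

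Several libraries stood apart in genes other than the 10. In vehicle 4, the 12 skeletal muscle markers summed to 85.8 CPM, with *Myh4* the most abundant at 20.1 CPM, whereas the other 7 libraries had 0 to 0.623 CPM and all 12 were at 0 in vehicle 1. In ISOGK 2, the plasma cell and B cell markers (10 of 11 in the table) summed to 361 CPM, against 146 to 257 CPM in the others. Most of that sum was *Sdc1*, which hepatocytes also express, at 335 CPM, while the antibody genes *Ighm* and *Jchain* reached 14.4 and 2.53 CPM and *Mzb1* at most 0.158 CPM. ISOGK 4 had the highest sum of the 10 hepatocyte markers, 192140 CPM against 144750 to 171680 CPM in the other 7 libraries. Of those 10 markers, 5 (*Alb*, *Ttr*, *Apoa2*, *Serpina1c* and *Fgb*) were highest in ISOGK 4 and 1, *Cps1*, was lowest there. These and the other markers named for this library were chosen after their values were seen. *Fgb* had 16838 CPM in ISOGK 4 and 5796 to 7364 CPM elsewhere. Among the 12 Kupffer cell markers, 5 (*Vsig4*, *Timd4*, *Adgre1*, *Marco* and *Csf1r*) were lowest in ISOGK 4 and 0 highest. *Vsig4* had 5.34 CPM there and 75.0 to 104 CPM elsewhere, and *Timd4* had 3.51 CPM there and 8.91 to 37.1 CPM elsewhere. Vehicle 1 was the highest library for 7 of the same 12 markers and the lowest for *Clec4f*, with 72.9 CPM of *Clec4f* against 163 to 231 CPM elsewhere, 170.3 CPM of *Marco* against 9.16 to 57.6 CPM, and 143 CPM of *Adgre1* against 37.0 to 73.2 CPM. *Alb* was the most abundant hepatocyte marker at 105176 to 141189 CPM, and no marker of that list was at 0 in any library of this tissue, labelled liver.

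Proteins destined for secretion or for membranes fold in the ER with the help of chaperones, and hepatocytes, which secrete most plasma proteins, hold a large ER. When unfolded proteins accumulate, the sensors ATF6, IRE1 (encoded by *Ern1*) and PERK (encoded by *Eif2ak3*) start the unfolded protein response (UPR), in which ATF6 and spliced XBP1 raise transcription of chaperone genes. BiP, the product of *Hspa5*, binds both unfolded proteins and the sensors, and its promoter and those of other chaperone genes carry ER stress response elements bound by ATF6 and NF-Y.

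Promoter sequences are shown because several of the 10 genes are known for control through such elements. RefSeq promoter windows of 300 bases (250 before and 50 after the transcription start, build GRCm38.p6) were found for 8 of the 10 genes, not for *Manf* and *Hyou1*. They were searched on both strands for the ER stress response element (ERSE), CCAAT followed by 9 free bases and CCACG. It was found in 5 of the 8 genes, against 0.119% of 32851 windows of 27025 genes. The second form of the element, ATTGG with 1 free base and CCACG, was in 0 of 8 (0.0365% of all windows), and the UPR element, TGACG joined to TGG, in 0 of 8 (0.676%). Each site is printed with 5 bases on either side, read so that CCAAT comes first, and the capitals mark the element. The *Hspa5* site lies at chr2:34772020-34772048 (plus strand), 65 to 47 bases before the start, within an exon of *Hspa5* in GENCODE. *Hsp90b1* has a site at chr10:86705633-86705661 (minus strand, the strand of the gene), 212 to 194 bases before the start. Its other site is at chr10:86705528-86705556 on the plus strand, 107 to 89 bases before the start. The sites of *Dnajc3* (chr14:118937822-118937850, plus strand) and *Pdia6* (chr12:17266486-17266514, plus strand) begin 105 and 98 bases before the start. In *Creld2* the element runs on the strand opposite to the gene, at chr15:88819515-88819543 (minus strand), 126 to 108 bases before the start.
Hspa5: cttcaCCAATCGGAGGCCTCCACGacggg
Hsp90b1, far site: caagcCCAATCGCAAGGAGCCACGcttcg
Hsp90b1, near site: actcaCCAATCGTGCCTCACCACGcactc
Dnajc3: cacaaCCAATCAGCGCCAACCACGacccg
Pdia6: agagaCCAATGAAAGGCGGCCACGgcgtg
Creld2: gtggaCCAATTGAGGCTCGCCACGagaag

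The surroundings of the element are shown for *Creld2* and *Dnajc3*, the genes with an element whose stretch before the start held no GENCODE exon. Both stretches hold 150 bases on the plus strand, the strand of both genes, with the element in capitals as it reads on that strand. The *Creld2* stretch is chr15:88819496-88819645 and the *Dnajc3* stretch is chr14:118937782-118937931 (GRCm38.p6), and neither overlaps an exon in GENCODE. A match in letters is a description and shows no binding.
Creld2 promoter: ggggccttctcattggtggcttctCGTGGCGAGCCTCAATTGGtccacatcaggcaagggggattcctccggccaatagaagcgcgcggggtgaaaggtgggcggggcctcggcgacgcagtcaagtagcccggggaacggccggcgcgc
Dnajc3 promoter: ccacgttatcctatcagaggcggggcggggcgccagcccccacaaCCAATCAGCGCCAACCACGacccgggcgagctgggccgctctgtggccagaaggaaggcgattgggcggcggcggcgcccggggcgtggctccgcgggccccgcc

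By exon length (GENCODE M21, build GRCm38), *Hspa5* had the highest level in vehicle livers, 148 ± 20.9 CPM per kb (SD, n = 4), with *Hsp90b1* next at 140.3 ± 31.5 CPM per kb. These levels overlapped between mice, as did the levels of the next pair, *Pdia4* at 78.5 and *Pdia6* at 68.3 CPM per kb. *Dnajc3* (35.5), *Creld2* (24.8) and *Hyou1* (21.6) followed on the same CPM per kb scale, each overlapping its neighbour, and *Manf* (15.8), *Dnajb9* (14.2) and *Sdf2l1* (13.3) were lowest and overlapped in turn. The ranges of *Hsp90b1* and *Pdia4*, of *Pdia6* and *Dnajc3*, and of *Hyou1* and *Manf* did not overlap. In ISOGK livers the order began alike, with *Hspa5* at 227 ± 97.7, *Hsp90b1* at 123 ± 37.4, *Pdia4* at 105 ± 44.9 and *Pdia6* at 53.2 ± 10.9 CPM per kb. *Creld2* (39.8) then stood before *Dnajc3* (27.3), *Manf* (25.7), *Hyou1* (25.4), *Dnajb9* (24.8) and *Sdf2l1* (18.2 CPM per kb). Every gene in the ISOGK order overlapped its neighbour.

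In ISOGK-treated livers none of the 10 genes passed edgeR's test at an adjusted p under 0.05, but for 9 of the 10 the SD of log2 CPM was larger among the ISOGK mice than among the vehicle mice, as for 70.6% of the 8704 genes with a mean of at least 5 CPM. *Hspa5*, *Dnajb9*, *Pdia4*, *Sdf2l1*, *Creld2*, *Manf* and *Hyou1* had a higher mean with ISOGK, and *Hsp90b1*, *Dnajc3* and *Pdia6* a lower one. For 10 of 10 genes ISOGK 2 was the lowest ISOGK mouse, and for 8 of 10 ISOGK 4 was the highest. The share of all genes with these orders was not counted. The 10 genes were correlated between mice, so these counts are not separate observations. Among all genes tested, 4.11% were called higher and 3.44% lower (7.55% in all), against 0 and 0 of the 10. At an unadjusted p under 0.05 edgeR gave 3 of the 10, against 24.2% of all genes, with *Dnajb9* higher and *Dnajc3* and *Pdia6* lower. DESeq2 called 1 of 10, *Dnajb9*, against 11.7% of all genes, and limma-voom called 0, against 7.09%. At an unadjusted p under 0.05 they gave 4 and 3 of the 10, against 24.2% of all genes with either tool. The median log2 fold change of the 10 genes was 0.44, against 0.0018 over all genes tested. It was 0.016 without ISOGK 4 and 0.67 without ISOGK 2. In 0 of 10 genes did the groups not overlap, against 15.3% of all genes tested. In whole liver, a difference in the number of cells of a type and a difference in RNA per cell cannot be told apart.

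**Figure D1:**
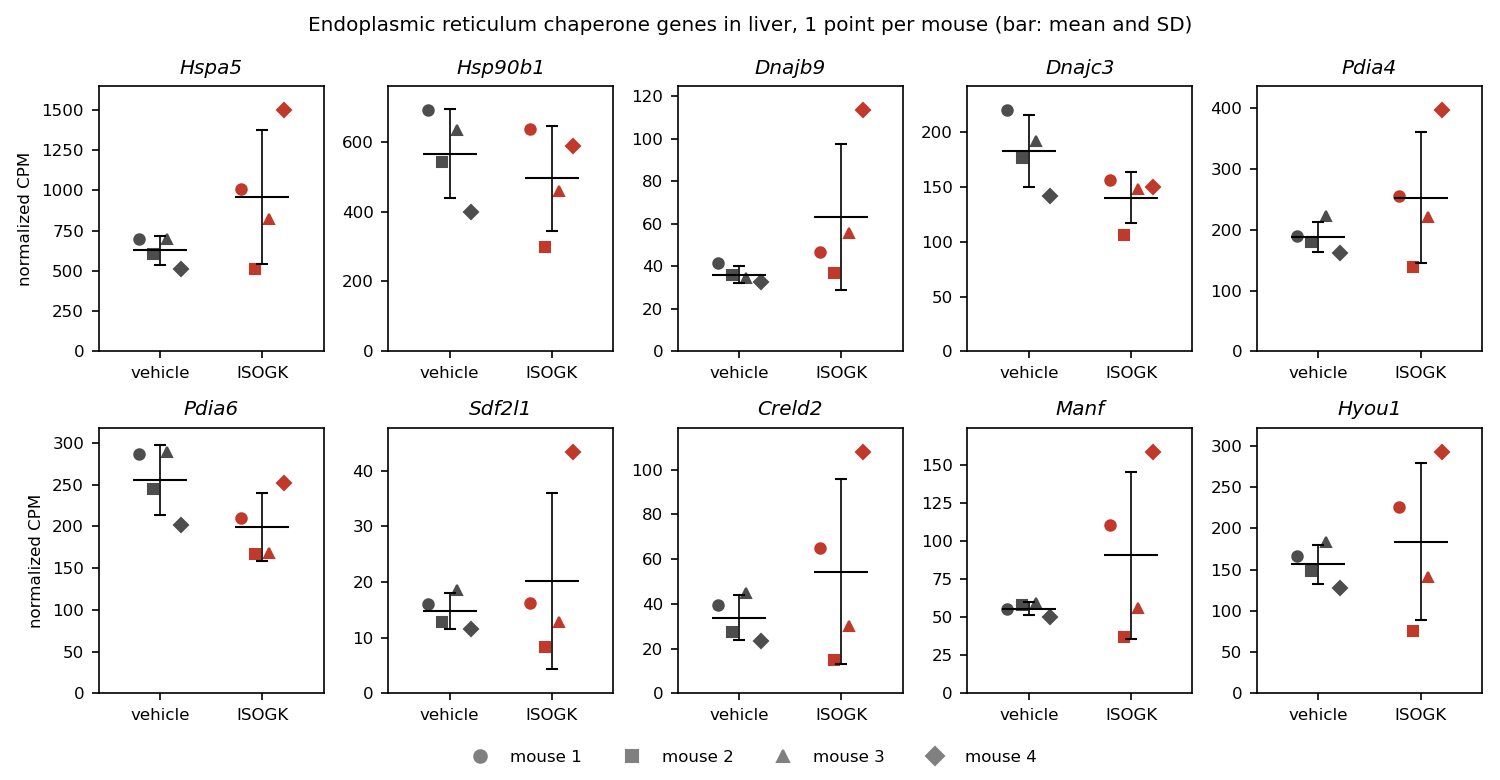
Level of each of the 10 genes in CPM (vertical axes, each starting at 0) in 4 vehicle mice (grey) and 4 ISOGK mice (red), with 1 symbol shape per mouse number and bars for the mean and SD. In every panel the groups overlap, and ISOGK 2 (square) is the lowest red point, from 511 CPM in Hspa5 to 8.28 CPM in Sdf2l1.

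*Hspa5* encodes BiP, the Hsp70 chaperone of the ER (chr2:34771970-34777547, plus strand, GRCm38). Its level was 697, 606, 696 and 512 CPM in vehicle 1 to 4, and 1006, 511, 819 and 1498 CPM in ISOGK 1 to 4. ISOGK 1, 3 and 4 were above every vehicle mouse, whereas ISOGK 2 lay just under the lowest vehicle mouse, so the groups overlapped. The means were 628 ± 88.3 and 958 ± 413 CPM (SD, n = 4 each). The log2 fold change was 0.61 (SE 0.28, 95% interval -0.03 to 1.25), with an edgeR adjusted p = 0.228. Without ISOGK 2 it was 0.82 with an edgeR adjusted p = 0.0453, and without ISOGK 4 it was 0.31. The fit without ISOGK 2 was the only one without 1 mouse in which any of the 10 genes was called, against 3.79% of all genes. In that setting the groups of *Hspa5* did not overlap, as for 18.1% of all genes. Over all alternatives the adjusted p of *Hspa5* ran from 0.0453 to 0.45.

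*Dnajb9* and *Dnajc3* encode the J-domain proteins ERdj4 and p58IPK, which stimulate the ATPase of BiP, and their means with ISOGK lay on opposite sides of the vehicle means. *Dnajb9* (chr12:44205559-44210326, minus strand) had 41.4, 36.0, 34.6 and 32.5 CPM in the vehicle mice and 46.8, 36.9, 55.7 and 113 CPM in the ISOGK mice. ISOGK 4 was far above the rest, ISOGK 1 and 3 were above every vehicle mouse, and ISOGK 2 lay among the vehicle mice. Its log2 fold change was 0.81 (SE 0.33, 95% interval 0.05 to 1.57), with means of 36.1 ± 3.81 and 63.2 ± 34.3 CPM (SD, n = 4 each). The edgeR adjusted p was 0.182, the DESeq2 adjusted p was 0.0341, and a two-sided exact permutation test gave p = 0.0571, where 4 mice against 4 allow no p under 0.0286. That exact p was not adjusted and was the smallest among the chaperone genes, the others running from 0.114 (*Dnajc3*) to 0.914 (*Hyou1*). Across the alternatives the adjusted p of *Dnajb9* ran from 0.0341 to 0.307, and its fold change was 0.36 without ISOGK 4. Without vehicle 1, or without ISOGK 2, the groups of *Dnajb9* no longer overlapped, as was so for 19% and 18.1% of all genes in those settings.

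*Dnajc3* (chr14:118937976-118981697, plus strand) had 220.0, 177, 192 and 142 CPM in vehicle 1 to 4 and 156, 106, 148 and 149.9 CPM in ISOGK 1 to 4. ISOGK 2 was under every vehicle mouse, and the other 3 ISOGK mice were under all vehicle mice but vehicle 4, the lowest vehicle mouse for all 10 genes. The means were 183 ± 32.5 and 140.1 ± 23.2 CPM (SD, n = 4 each). The difference was -0.38 on the log2 scale (SE 0.15, 95% interval -0.71 to -0.06), and edgeR gave an adjusted p = 0.143. Without vehicle 4 the groups did not overlap, as for 20.5% of all genes, and the log2 fold change was -0.49, still with no call. *Dnajc3* and *Pdia6* were the only genes of the 10 in which ISOGK 4 lay below the vehicle mean of log2 CPM.

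The other partners of BiP had a wide spread with ISOGK. *Hyou1* encodes GRP170, which exchanges the nucleotide of BiP, and lies at chr9:44379490-44392369 (plus strand). Its levels were 166, 149, 183 and 128 CPM in the vehicle mice and 226, 75.5, 141 and 293 CPM in the ISOGK mice. ISOGK 1 and 4 were above and ISOGK 2 was below every vehicle mouse. The log2 fold change of 0.23 (SE 0.38, edgeR adjusted p = 0.761) was -0.085 without ISOGK 4 and 0.49 without ISOGK 2. *Sdf2l1* encodes a partner of the co-chaperone ERdj3 (encoded by *Dnajb11*) and lies at chr16:17130138-17132383 (minus strand). It had 16.1, 12.9, 18.6 and 11.5 CPM in the vehicle mice and 16.3, 8.28, 12.8 and 43.4 CPM in the ISOGK mice. Only ISOGK 4 was above the vehicle range and only ISOGK 2 below it. Its log2 fold change was 0.45 (SE 0.50, edgeR adjusted p = 0.641), -0.24 without ISOGK 4 and 0.71 without ISOGK 2.

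*Hsp90b1* encodes GRP94, the Hsp90 chaperone of the ER (chr10:86690209-86705509, minus strand). Vehicle mice had 689.8, 543, 632 and 399 CPM and ISOGK mice 636, 298, 458 and 587 CPM. Apart from ISOGK 2, which was below every vehicle mouse, the ISOGK mice lay inside the vehicle range. The log2 fold change was -0.19 (SE 0.24, 95% interval -0.73 to 0.35, edgeR adjusted p = 0.676). It was -0.014 without ISOGK 2, so that the lower mean rests on that mouse, and -0.34 without ISOGK 1.

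*Pdia4* and *Pdia6* encode the disulfide isomerases ERp72 and P5, which form and rearrange disulfide bonds. *Pdia4* (chr6:47796141-47813430, minus strand) had 189, 181, 222 and 162 CPM in the vehicle mice and 256, 139, 220.2 and 397 CPM in the ISOGK mice. *Pdia6* (chr12:17266545-17284770, plus strand) had 287, 245, 289 and 201 CPM in the vehicle mice and 210.3, 166, 168 and 252 CPM in the ISOGK mice. For *Pdia4*, ISOGK 1 and 4 were above every vehicle mouse and ISOGK 2 below, whereas for *Pdia6* none was above, and ISOGK 2 and 3 were below. The log2 fold changes were 0.43 (SE 0.27, edgeR adjusted p = 0.388) for *Pdia4* and -0.36 (SE 0.16, edgeR adjusted p = 0.183) for *Pdia6*. That of *Pdia4* was 0.12 without ISOGK 4 and 0.63 without ISOGK 2, while that of *Pdia6* ran from -0.49 to -0.28 with each mouse left out.

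*Creld2* encodes a cysteine-rich ER protein with EGF-like domains (chr15:88819646-88826683, plus strand). It had 39.6, 27.6, 44.7 and 23.4 CPM in the vehicle mice and 64.9, 14.8, 30.1 and 108 CPM in the ISOGK mice. ISOGK 1 and 4 were above and ISOGK 2 was below every vehicle mouse, and the highest ISOGK mouse had 7.28 times the level of the lowest. The log2 fold change was 0.69 (SE 0.60, 95% interval -0.74 to 2.11, edgeR adjusted p = 0.544). It was 0.12 without ISOGK 4 and 1.00 without ISOGK 2.

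*Manf* encodes an ER protein that binds BiP and is secreted under stress (chr9:106838312-106891979, minus strand). Its vehicle levels were close together at 55.4, 58.0, 59.4 and 49.9 CPM, and the ISOGK mice had 111, 37.0, 56.1 and 159 CPM. ISOGK 1 and 4 were above every vehicle mouse, ISOGK 3 was among them and ISOGK 2 was below. The log2 fold change was 0.70 (SE 0.42, 95% interval -0.29 to 1.70, edgeR adjusted p = 0.365), and 0.29 without ISOGK 4. The exons of *Manf* share 146 bases with *Dcaf1* on the opposite strand (4.14% of their length) and 14 bases with *Rbm15b*, both also in the count table. The use of strand in counting is not given in the sources used here, so reads of these stretches cannot be told apart.

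**Figure D2:**
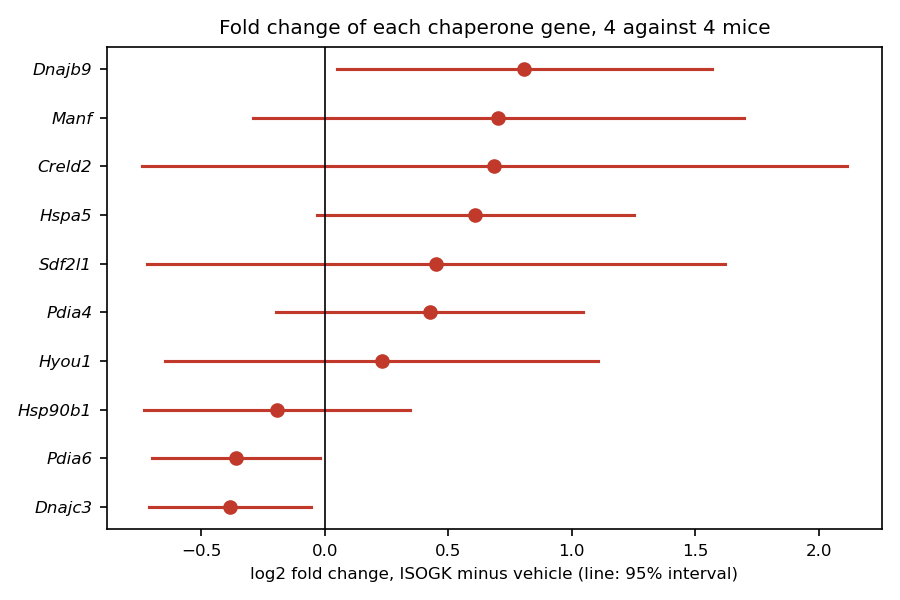
Log2 fold change of each gene, ISOGK minus vehicle (horizontal axis), from edgeR's fit to 4 against 4 mice, with points for the estimate and lines for the 95% interval. The estimates run from -0.38 for Dnajc3 to 0.81 for Dnajb9, with 7 above 0 and 3 below, and no gene passed an adjusted p under 0.05.

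On the log2 scale, the spread between mice was larger with ISOGK for 9 of the 10 genes, the exception being *Dnajc3*. For 8 of the 10 genes the SD of log2 CPM in ISOGK mice was above 0.488, the 95th percentile of the 8704 genes with a mean of at least 5 CPM, which 5.01% of them exceeded. The SD of *Creld2* was 1.25 in ISOGK mice and 0.434 in vehicle mice, and that of *Sdf2l1* was 1.01 and 0.31. *Manf* had the most even vehicle levels of the 10 genes, with an SD of 0.111, yet an SD of 0.946 with ISOGK. *Hyou1* had SDs of 0.858 with ISOGK and 0.224 with vehicle, and *Dnajb9* had 0.697 and 0.148. *Hspa5* (0.645), *Pdia4* (0.625) and *Hsp90b1* (0.491) completed the 8, while *Pdia6* (0.288) and *Dnajc3* (0.261) did not reach that percentile. In the vehicle group 1 of the 10 genes, *Creld2*, was above the vehicle percentile of 0.349. The difference in spread between the groups was not tested.

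ISOGK 4 and ISOGK 2 stood at opposite ends for most of the genes. Mean log2 deviations from the group mean over the 10 genes were 0.23, -0.82, -0.20 and 0.79 in ISOGK 1 to 4. In vehicle 1 to 4 they were 0.17, -0.06, 0.20 and -0.30, with vehicle 4 the lowest vehicle mouse for 10 of 10 genes. The share of all genes lowest in vehicle 4 was not counted either. The 10 genes took 0.265%, 0.134%, 0.214% and 0.318% of all counts in ISOGK 1 to 4, against 0.174% to 0.258% in the vehicle mice. Thus 1 ISOGK library had a smaller share than any vehicle library, and 2 had a larger share. ISOGK 1 was the highest ISOGK mouse for *Hsp90b1* and *Dnajc3*, and ISOGK 4 for the other 8. The same ends were seen in some of the lists of other genes counted below. Summed CPM was highest in ISOGK 4 and lowest in ISOGK 2 for ER-associated degradation (2849 and 1960). The same held for translocon and signal peptide genes (1529 and 1142) and for UPR sensors and factors (896 and 761). In the remaining lists ISOGK 4 was not the highest library or ISOGK 2 not the lowest.

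**Figure D3:**
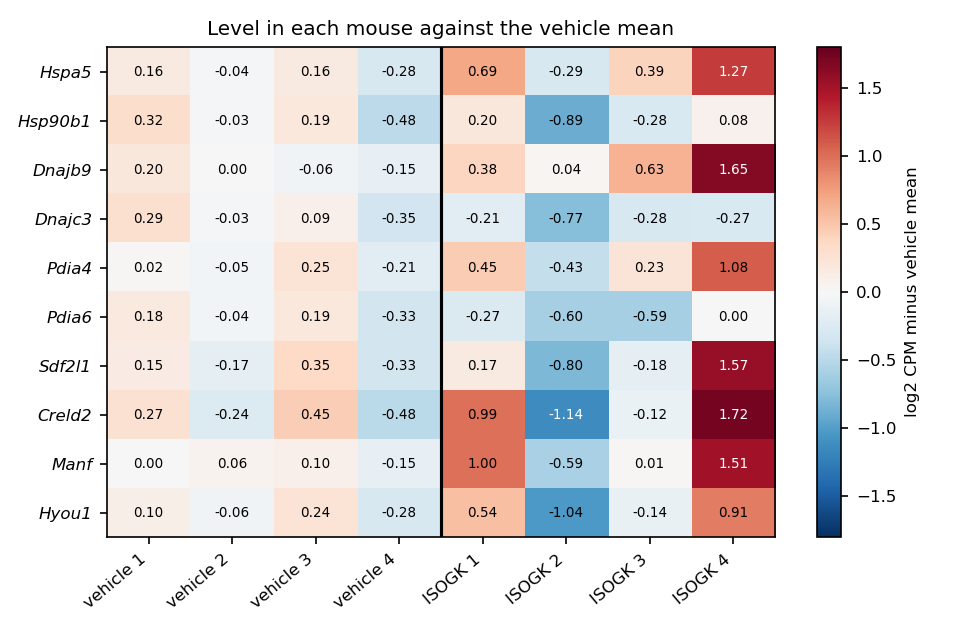
Log2 CPM of the 10 genes (vertical) in each of the 8 mice (horizontal, vehicle to the left of the line), less the vehicle mean of the gene, with higher values in red, lower values in blue and each value printed. ISOGK 4 ranges from -0.27 in Dnajc3 to 1.72 in Creld2, and ISOGK 2 from -1.14 in Creld2 to 0.04 in Dnajb9.

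Because the mice differed in the level of the whole group of genes, the genes were also compared with each other inside each library, as the ratio of their raw counts. This comparison was chosen after the values were seen. Of the 45 pairs of the 10 genes, 10 (22.2%) had ratios that did not overlap between the groups, against 15.4% of 66291855 pairs of the 11515 genes with at least 10 counts in every library. The pairs share genes, and *Hspa5* was in 5 of the 10. The ratio of *Hspa5* to *Pdia6* was 2.43, 2.47, 2.41 and 2.54 in the vehicle mice and 4.78, 3.07, 4.88 and 5.93 in the ISOGK mice. In this ratio ISOGK 2 was the ISOGK mouse nearest to the vehicle mice. The ratio of *Hspa5* to *Dnajc3* was 3.17, 3.43, 3.62 and 3.60 with vehicle and 6.43, 4.83, 5.52 and 9.99 with ISOGK. *Hspa5* to *Hsp90b1* gave 1.01, 1.12, 1.102 and 1.28 with vehicle and 1.58, 1.71, 1.79 and 2.55 with ISOGK. These pairs are described because they did not overlap, and with 4 of its 9 partners, *Dnajb9*, *Sdf2l1*, *Creld2* and *Manf*, the ratio of *Hspa5* did overlap between the groups.

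Between the J-domain genes, the ratio of *Dnajb9* to *Dnajc3* was 0.188, 0.203, 0.180 and 0.228 with vehicle and 0.299, 0.349, 0.375 and 0.756 with ISOGK, a difference in mean log2 ratio of 1.06. *Dnajb9* to *Pdia6* differed by 1.04 and *Pdia4* to *Pdia6* by 0.70 on the same log2 scale, and *Dnajc3* to *Pdia4* by -0.72. The remaining 3 pairs had smaller differences in mean log2 ratio, 0.45 for *Hspa5* to *Hyou1*, 0.41 for *Manf* to *Hyou1* and 0.18 for *Hspa5* to *Pdia4*. *Dnajc3*, *Pdia4* and *Pdia6* were in 3 of the 10 pairs each, and *Sdf2l1* and *Creld2* in 0. With each mouse left out in turn, between 10 and 16 of the 45 pairs (22.2% to 35.6%) did not overlap, while the share over all pairs of genes was also larger with fewer mice, 18.1% to 24.2%. The count was highest without ISOGK 1 (35.6% against 22.3%), and without ISOGK 3 the share of the 45 pairs was below that of all pairs (22.2% against 24.2%). A ratio does not say which gene of a pair differed, and whether the share of the 45 pairs differs from that of all pairs was not tested.

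**Figure D4:**
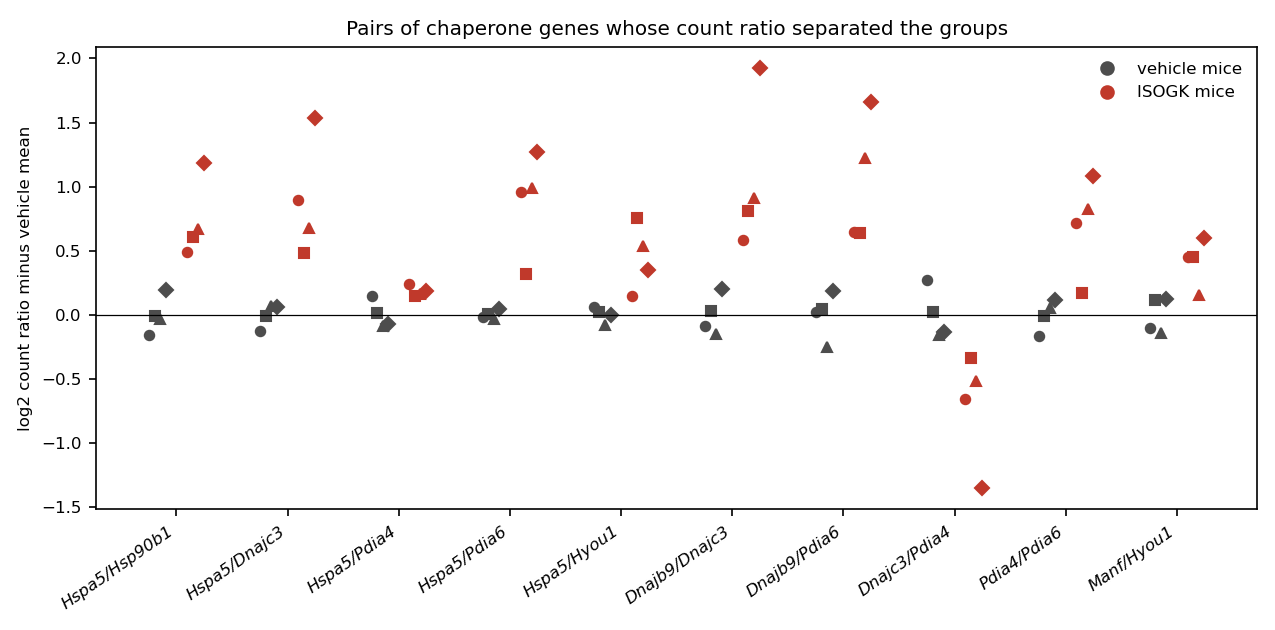
Log2 count ratio of the 10 pairs whose groups did not overlap (horizontal axis), less the mean of the vehicle mice (vertical axis), with vehicle mice in grey, ISOGK mice in red and 1 symbol shape per mouse number. All red points lie above the grey ones except for Dnajc3 to Pdia4, where all lie below, and the difference of means is largest for Dnajb9 to Dnajc3 at 1.06.

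How alike the genes moved from mouse to mouse was described by the Pearson correlation of log2 deviations from the group means over the 8 mice, with no p. *Hspa5* followed the mean of the other 9 genes most closely (r = 0.997), then *Creld2* (0.986), *Pdia4* (0.979) and *Hyou1* (0.977). *Dnajc3* (0.727) and *Dnajb9* (0.819) followed it least. Without ISOGK 2 and ISOGK 4, the mice farthest from the median, r was 0.989 for *Hspa5*, 0.737 for *Dnajc3* and -0.015 for *Dnajb9*, so that the likeness of *Dnajb9* to the rest rests on those mice. The closest pair was *Creld2* with *Hyou1* (0.989), *Hsp90b1* was closest to *Dnajc3* (0.949), and *Dnajb9* with *Dnajc3* was the least alike pair (0.512). Of 8694 other genes, those most like the mean of the 10 were *Syvn1* (r = 0.992, Spearman's rho = 0.976), *Dnajb11* (0.990 and 0.929), *Jpt2* (0.979 and 0.976), *Calr* (0.974 and 0.929) and *P4ha2* (0.966 and 0.929). Without the same mice r was 0.964 for *Syvn1*, 0.990 for *Dnajb11*, 0.888 for *Jpt2*, 0.881 for *Calr* and 0.803 for *P4ha2*. *Syvn1* encodes the ubiquitin ligase HRD1 of ER-associated degradation, *Dnajb11* the co-chaperone ERdj3 and *Calr* the lectin chaperone calreticulin. None of these 5 genes passed edgeR's test between the groups, with adjusted p from 0.0756 (*Jpt2*) to 0.984 (*Dnajb11*). DESeq2 called *Jpt2* lower (adjusted p = 0.0339), and without ISOGK 4 edgeR called *Jpt2* and *P4ha2* lower. With library size in place of TMM, edgeR also called *Jpt2* lower (edgeR adjusted p = 0.0229).

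The sensors and factors that act upstream of the 10 genes were measured in the same mice. *Ern1*, which encodes IRE1, had 79.8, 70.4, 81.4 and 68.6 CPM in the vehicle mice and 47.3, 42.2, 59.4 and 50.1 CPM in the ISOGK mice. It fell with ISOGK in 4 of 4 mice, with no overlap (log2 fold change -0.59, SE 0.11, edgeR adjusted p = 0.00956), and was called in all 8 fits without 1 mouse. *Creb3l3*, which encodes the liver ER factor CREBH, rose by 0.43 on the log2 scale (SE 0.11, edgeR adjusted p = 0.0328), above every vehicle mouse in 4 of 4 ISOGK mice, but was called in only 2 of the 8 fits without 1 mouse, with an adjusted p of up to 0.105 in the others. *Atf6* had a log2 fold change of -0.26, with groups that did not overlap, and *Xbp1* of -0.35 with groups that did, with edgeR adjusted p of 0.213 and 0.239. Counts per gene do not show the spliced form of *Xbp1*. *Ddit3*, which encodes CHOP, had 14.9 CPM in ISOGK 4 against 1.62 to 5.59 CPM in the other 7 mice. Its log2 fold change was 1.35 (edgeR adjusted p = 0.175). Among the ISOGK mice, ISOGK 4 was thus the highest here, as for 8 of the 10 chaperone genes. *Eif2ak3* (0.34, edgeR adjusted p = 0.431), *Atf4* (0.36, 0.177) and *Atf6b* (-0.10, 0.652) were not called by edgeR, DESeq2 or limma-voom either. Without ISOGK 4 the log2 fold change was 0.65 for *Ddit3*, 0.072 for *Eif2ak3* and 0.21 for *Atf4*. Without ISOGK 2 it was -0.15 for *Atf6*, -0.22 for *Xbp1* and 0.51 for *Eif2ak3*, and *Atf6b* ran from -0.16 (without ISOGK 4) to -0.036 (without vehicle 4).

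Around the 10 genes, 9 lists of ER and chaperone genes were counted, with 187 of 191 genes tested. Of these, edgeR called 7 (3.74%) higher and 3 (1.6%) lower, against 12 and 8 with DESeq2 and 7 and 3 with limma-voom, and their median log2 fold change was 0.011. Over all genes tested, 4.11% were called higher and 3.44% lower. Of the listed genes, 4 or 5 were called without any 1 vehicle mouse, 6 without ISOGK 2 and 17 without ISOGK 3, while the share called over all genes moved the same way, from 7.55% with all mice to between 3.05% and 4.42%, to 3.79% and to 9.92%. In brackets are the median of each list, or the log2 fold change of a gene with its edgeR adjusted p. Among 28 other ER folding enzymes, lectins and co-chaperones edgeR and limma-voom called 0 (median -0.06), each with 7 at an unadjusted p under 0.05, and DESeq2 called 1 higher, *Pdia5*, and 2 lower, *Uggt1* and *Canx*. The smallest edgeR adjusted p were those of *Pdia5* (0.41, edgeR adjusted p = 0.0537), *Creld1* (0.31, 0.0764) and *Uggt1* (-0.34, 0.0821). *Pdia5* was called higher by edgeR without ISOGK 3 (0.50, 0.0139), and *Uggt1* lower with library size in place of TMM (-0.475, 0.0259). The 14 UPR sensors and factors had 1 higher and 1 lower, *Creb3l3* and *Ern1* (median 0.05). *Mbtps1* (-0.22, edgeR adjusted p = 0.164) had the next smallest adjusted p of that list and was not called. The 20 targets of PERK and the integrated stress response had 3 higher and 0 lower (median 0.08). The 3 were *Fgf21*, a hepatokine (log2 fold change 2.99, edgeR adjusted p = 0.00122), *Asns*, asparagine synthetase (3.45, 0.00813), and *Gars*, a tRNA synthetase (0.40, 0.0241), of which *Gars* was called in 4 of the 8 fits without 1 mouse. *Fgf21* had 5.05 to 13.4 CPM in the ISOGK mice and 0.712 to 1.6 CPM in the vehicle mice. *Asns* had 3.5 CPM in ISOGK 3 and 19.3 CPM in ISOGK 4, the ends of the ISOGK range, against 0.491 to 1.45 CPM in the vehicle mice. ISOGK 2, the lowest ISOGK mouse for all 10 chaperone genes, had 13.1 CPM of *Asns* and 12.2 CPM of *Fgf21* and was the lowest for neither. DESeq2 called 1 more gene of this list, *Vldlr*, lower.

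In ER-associated degradation 1 of 20 genes was higher, *Stt3b* (0.34, edgeR adjusted p = 0.0411, called in 2 of 8 fits without 1 mouse), and 0 lower (median 0.06). *Ube2j1* (0.20) was not called in any setting. *Derl1* (0.28) was not called with all mice, was called without ISOGK 3 (0.39) and was 0.17 without ISOGK 4. Of 23 translocon and signal peptide genes 0 were called by edgeR, DESeq2 or limma-voom (median 0.10), with 4, 5 and 6 at an unadjusted p under 0.05. *Sec63* (-0.29), *Sec62* (-0.38) and *Spcs3* (-0.31) had the smallest edgeR adjusted p. With library size in place of TMM, edgeR called *Sec63* (-0.42, edgeR adjusted p = 0.0457) and *Spcs3* (-0.44, 0.0292) lower. Of 22 ER to Golgi genes 1 fell, *Lman1*, a cargo receptor (-0.47, edgeR adjusted p = 0.00813), which was called in all 8 fits without 1 mouse (median of the list 0.0072). *Tango2* (-0.35) and *Mia3* (-0.55) were not called by edgeR with all mice and TMM scaling. Both were called lower by DESeq2 (adjusted p = 0.0316 and 0.0251) and by edgeR without ISOGK 1. With library size in place of TMM, edgeR also called *Tango2* lower (-0.48, edgeR adjusted p = 0.0248). Of 22 cytosolic heat shock genes 1 rose in edgeR's test, *Hspa8*, which encodes HSC70 (0.57, edgeR adjusted p = 0.0262, called in 6 of 8 fits without 1 mouse), with a median of 0.14. DESeq2 called 4 of them higher, *Hspa8*, *Hspa1a*, *Dnaja2* (0.28, DESeq2 adjusted p = 0.022) and *Hspa1b* (2.63, edgeR adjusted p = 0.096, DESeq2 adjusted p = 0.004915). *Hspa1b* was also called by edgeR without the robust option and without ISOGK 1. Of 14 mitochondrial genes edgeR and limma-voom called 0 (median 0.13), with 5 and 4 at an unadjusted p under 0.05, and DESeq2 called 1 higher, *Grpel1* (0.45, DESeq2 adjusted p = 0.0411), which edgeR called without ISOGK 3. *Afg3l2* (0.24) and *Clpx* (0.57) were called by none of the 3 tools. The 24 secreted hepatocyte proteins, which pass through the ER, had 1 higher, *Rbp4* (0.38, edgeR adjusted p = 0.0381, called in 2 of 8 fits without 1 mouse). Their summed level was 310230 CPM in ISOGK 4 and 211550 to 244410 CPM in the other libraries. In the same list 1 was lower, *Serpind1* (-0.51, edgeR adjusted p = 0.0294, called in 3 of 8), *Cp* had -0.26 without a call, and the median was -0.0058. With library size alone, a scaling that moved the median of all genes to -0.13, edgeR no longer called *Creb3l3*, *Gars*, *Stt3b*, *Hspa8* and *Rbp4*, with adjusted p from 0.075 (*Hspa8*) to 0.166 (*Stt3b*). Of the listed genes named above, edgeR gained *Uggt1*, *Mbtps1*, *Sec63*, *Spcs3* and *Tango2* as lower in that setting. Their edgeR adjusted p ran from 0.0248 (*Tango2*) to 0.0479 (*Mbtps1*). *Canx*, *Vldlr* and *Hspa1a* were named after their values were seen.

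**Figure D5:**
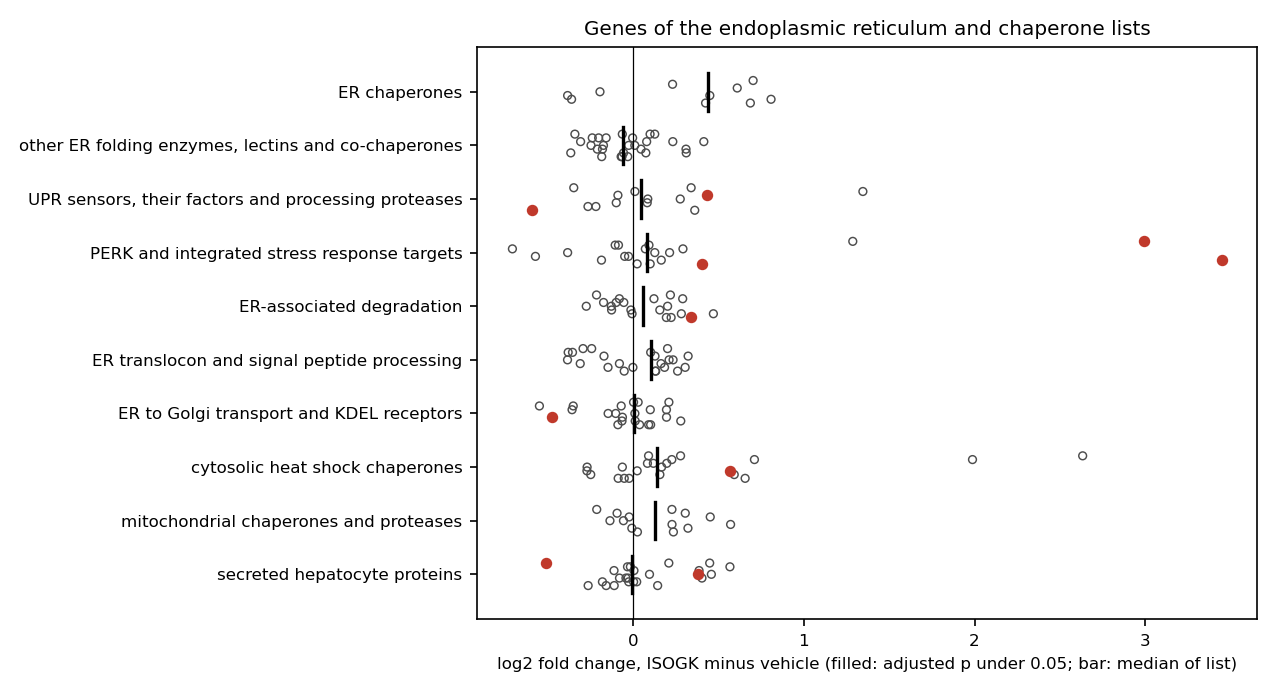
Log2 fold change, ISOGK minus vehicle (horizontal axis), of each tested gene of the 10 chaperones and of 9 other lists (vertical axis), with filled red points for an edgeR adjusted p under 0.05 and bars for the median of each list. The median of the 10 chaperones is 0.44 with 0 called, and the medians of the other lists run from -0.06 to 0.14.

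Levels of markers of other liver cells are given beside these results, and their part in them was not tested. Of the 10 hepatocyte markers edgeR called 0, and DESeq2 called *Pck1* and *Tat* higher, both chosen after their values were seen. DESeq2 also called *Sdc1* higher (0.62, DESeq2 adjusted p = 0.0106), which edgeR did not (edgeR adjusted p = 0.0554). *Sdc1* was called higher as well without ISOGK 1 (0.76) and with a block on the replicate number (0.59). The 12 Kupffer cell and macrophage markers summed to 1626 to 2084 CPM in vehicle mice and 1342 to 1712 CPM in ISOGK mice, with 11 of 12 fold changes below 0, and *Cd5l* the most abundant. *Cd68*, chosen after its values were seen, was the 1 of them called lower by edgeR, while DESeq2 and, in edgeR, scaling by library size alone also called *Cd5l* lower. The 12 stellate cell markers (*Dcn* the most abundant) summed to 258 CPM in ISOGK 4 and 338 to 485 CPM in the others, with 0 called by edgeR and 3 at an unadjusted p under 0.05, and 1 called by DESeq2. The 10 endothelial markers (*Stab2* the most abundant) summed to 489 to 572 CPM, with 0 called by edgeR or DESeq2 and 2 at an unadjusted p under 0.05. The 8 cholangiocyte markers (*Spp1* the most abundant) summed to 39.8 to 49.1 CPM in vehicle mice and 44.3 to 85.0 CPM in ISOGK mice, the highest in ISOGK 2. *Sox9* was called higher by edgeR, and *Sox9* and *Krt19* by DESeq2, both genes chosen after their values were seen. T and NK cell markers (*Cd4* the most abundant) summed to 3.97 to 9.90 CPM, and pancreatic acinar markers (*Cela1* the most abundant) to 2.54 to 6.86 CPM. Without vehicle 4, the library with the muscle markers, edgeR called 0 of the 10 chaperone genes, as with it, and gave 2 at an unadjusted p under 0.05.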

How the data were processed

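The authors aligned single-end reads of 8 liver libraries with HISAT2 2.0.5 and computed counts per gene with StringTie 1.3.3b (versions and the build mm10 from the submitters' processing notes). The deposited values are raw counts per gene symbol. In R 4.3.3, genes were filtered with filterByExpr (minimum count 10, minimum total 15), scaled by TMM and tested in edgeR 4.0.16 (quasi-likelihood, robust), with Benjamini-Hochberg adjustment over all 12307 genes (common biological coefficient of variation 0.164). Log2 CPM used a prior count of 2. Exact permutation tests were two-sided over 70 assignments. The genes and lists were chosen with earlier results of these data known. Named genes were the 10 chaperone genes, 7 UPR sensors and factors, the 3 genes with the smallest adjusted p in each list, *Apoe*, the 5 most alike genes and the most abundant marker of each list. Alternatives were DESeq2 1.42.0, limma-voom (limma 3.58.1), other scalings and filters, a fit without the robust option, a block on the replicate number, and each mouse left out. The methods were tested on simulated data. Intervals cover counting error and the spread of these mice only. Lengths and positions came from GENCODE M21.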

Additional observations from a re-analysis of the deposited data

Results flagged for a closer look

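In each group of 4 mice, the gap between the highest or lowest mouse and its nearest neighbour was divided by the whole range of the group in log2 CPM. Of 118 groups tested, 5 had a ratio past Dixon's critical value at 95%. Chance alone gives such a mouse in about 1 of 20 groups, and 5 of 118 is close to that share. Among the chaperone genes the only case was *Dnajc3*, where ISOGK 2 was far below the other ISOGK mice (ratio 0.865). ISOGK 2 was also far below the others for *Atf6* (ratio 0.885), and vehicle 1 was far above the other vehicle mice for *Atf6* (ratio 0.864). Vehicle 2 was far below the rest of its group for *Creb3l3* (ratio 0.869). Vehicle 4 was the only vehicle mouse with counts of the muscle gene *Myh4* (ratio 1).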

How the results depend on the processing

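No chaperone gene was called lower in any setting. The number called higher was 1 with DESeq2 (*Dnajb9*), against 11.7% of all genes called in either direction. With each mouse left out it was 0 to 1 (*Hspa5*, without ISOGK 2, against 3.79% of all genes). In the other settings it was 0, against 5.31% to 8.66% of all genes. The cause was not tested. The median log2 fold change of the 10 genes ran from 0.016 to 0.67 with each mouse left out, and was 0.26 with limma-voom and 0.28 with library size alone. Single genes moved by over 1.5 times without a change of sign, with limma-voom in *Creld2* (0.37), *Sdf2l1* (0.19) and *Hyou1* (0.07), and with library size alone in *Hsp90b1* (-0.33), *Pdia4* (0.27), *Sdf2l1* (0.28) and *Hyou1* (0.079). With a mouse left out, the groups did not overlap in 0 to 2 of the 10 genes, against 17.9% to 24.9% of all genes, and the ratios in 10 to 16 pairs, against 18.1% to 24.2% of all pairs. *Sdf2l1* ran from -0.24 to 0.71 and *Hyou1* from -0.085 to 0.49, each below 0 only without ISOGK 4. Of the 187 tested genes of the 9 lists, 20 were called with DESeq2 (12 higher, 8 lower), against 11.7% of all genes. With library size alone 16 were called (2 higher, 14 lower), against 8.66% of all genes (262 higher, 804 lower), whose median moved to -0.13. With a mouse left out 4 to 17 were called (2 to 13 higher, 2 to 5 lower), against 3.05% to 9.92% of all genes. Among uncalled genes, *Dnajb11* reversed to -0.045 with limma-voom and -0.14 with library size alone, and ran from -0.24 to 0.18 with a mouse left out. *Cd4* gave -0.21, -0.11 and -0.69 to 0.23 in the same order. *Alb* gave -0.11 with library size alone and -0.041 to 0.10 with a mouse left out. With the replicate number as a replicate block, the median of the 10 genes was 0.26, *Creld2* was 0.36, *Sdf2l1* 0.18 and *Hyou1* 0.071, 4 listed genes were higher, with *Creb3l3*, *Stt3b* and *Rbp4* not called, *Dnajb11* was -0.049 and *Cd4* -0.14, and libraries of the same number correlated at only -0.0144 to 0.0849, so the numbers were not treated as pairs. The causes of these shifts were not tested. Depth limits *Sdf2l1* most, at 157 counts in its lowest library.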
